A study of Homo sapiens with 11 samples.

Results

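The 9 genes described here are classical targets of the oxidative stress factor NRF2: SLC7A11, GCLC, GCLM, TXNRD1, SRXN1, NQO1, HMOX1, SQSTM1 and OSGIN1. They were chosen by name, as every probe set annotated to exactly 1 of these symbols. That gave 22 probe sets of 41091 with a single symbol, and 9 genes of 19775. SQSTM1 had 5 probe sets, GCLC, GCLM, NQO1 and SLC7A11 had 3 each, TXNRD1 had 2, and HMOX1, SRXN1 and OSGIN1 had 1 each.

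NRF2, encoded by NFE2L2, is a transcription factor that KEAP1 holds in the cytoplasm and hands over for degradation. Electrophiles and oxidants modify KEAP1, and NRF2 then builds up, pairs with small MAF proteins and binds antioxidant response elements in its target genes. The targets make glutathione and thioredoxin reducing power, break down haem and detoxify quinones, and several are also reached by other stress factors such as ATF4, BACH1 and AP-1.

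The samples were MDA-MB-231 cells, a human breast cancer line that has little estrogen receptor alpha, on 11 Affymetrix HG-U133 Plus 2.0 arrays. All cells had 4 h of preincubation in charcoal-stripped serum before the 3 h of treatment. The groups were free estradiol at 1 µM (1 array), E2-BSA, which is estradiol linked to bovine serum albumin, at 1 µM (2 arrays), E2-BSA at 1 µM with ICI at 10 µM (1 array), E2-BSA at 1 µM with G15 at 10 µM (1 array), ICI at 10 µM (1 array), G15 at 10 µM (1 array), the carrier BSA at 1 µM (1 array), ethanol at 0.1%, the vehicle of estradiol (1 array), and untreated control (2 arrays). G15 blocks GPER, the membrane estrogen receptor coupled to G proteins, and ICI is given by that abbreviation only. Nothing in the labels says whether the duplicates were separate cultures, so p-values measure the spread between these arrays, which may be technical, and precision is limited by how few arrays there are.

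The deposited values are centred around 0 for each probe set and were taken as log2. They give differences between arrays but no level of a gene, so the cell line could not be checked against its markers, and fewer responding cells cannot be told apart from a smaller response per cell. The arrays fall into 2 sets by the poly-A controls, bacterial transcripts spiked into the RNA. These averaged 1.40 to 1.62 in the estradiol, first E2-BSA and first control arrays, and -0.56 to 0.10 in the other 8. Comparisons below therefore stay within a set or use limma with a term for the set. This additive set fit holds a term for each treatment over all 11 arrays, and p-values are adjusted over all 19775 genes by the Benjamini-Hochberg method. A gene passed at an adjusted p under 0.05.

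The antioxidant response element was searched for as TGACNNNGC, on both strands, in RefSeq promoter windows of 300 bases (GRCh38.p14), each reaching from 250 bases before a start site to 50 after it. Windows were held for 7 of the 9 genes, 10 windows in all, and none for HMOX1 and SLC7A11. The element was in 3 of these 10, from 2 of the 7 genes, and in 13.3% of all 35116 windows. Elements more than 250 bases before a start site could not be seen, so a window without a match does not show that the gene lacks one. It lay in the GCLM window (chr1:93909381-93909680, minus strand), 34 bases before the start site. It also lay in both TXNRD1 windows (chr12:104215529-104215828 and chr12:104286782-104287081, plus strand), at 99 and 8 bases before the first start site and 102 before the second. The AP-1 element TGANTCA, also sought on both strands, was in the OSGIN1 window (chr16:83952990-83953289, plus strand), 97 bases before the start site, and in 7.71% of all windows. No match to one element overlapped a match to the other in these windows. These 4 windows are shown because they carry the motifs of the factors named above, with TGACNNNGC in capitals for GCLM and TXNRD1 and TGANTCA in capitals for OSGIN1. A match is a description of the letters and not a measured binding site.
GCLM: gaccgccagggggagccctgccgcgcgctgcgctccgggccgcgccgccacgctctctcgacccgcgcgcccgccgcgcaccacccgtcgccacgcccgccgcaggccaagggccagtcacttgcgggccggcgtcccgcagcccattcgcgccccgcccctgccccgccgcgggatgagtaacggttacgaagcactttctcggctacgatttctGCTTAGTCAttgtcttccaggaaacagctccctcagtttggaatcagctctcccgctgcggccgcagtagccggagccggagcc
TXNRD1, first start site: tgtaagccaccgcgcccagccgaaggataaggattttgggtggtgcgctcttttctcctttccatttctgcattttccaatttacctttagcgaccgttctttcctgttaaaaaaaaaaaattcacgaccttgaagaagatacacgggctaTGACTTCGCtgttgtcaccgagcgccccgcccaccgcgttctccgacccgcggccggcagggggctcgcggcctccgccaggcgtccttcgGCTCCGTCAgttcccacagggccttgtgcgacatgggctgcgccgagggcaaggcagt
TXNRD1, second start site: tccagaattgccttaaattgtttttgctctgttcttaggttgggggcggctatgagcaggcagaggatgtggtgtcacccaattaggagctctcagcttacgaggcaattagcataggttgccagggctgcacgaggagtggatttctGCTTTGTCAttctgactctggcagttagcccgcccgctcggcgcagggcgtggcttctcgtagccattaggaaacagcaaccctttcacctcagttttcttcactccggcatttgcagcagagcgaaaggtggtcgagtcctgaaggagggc
OSGIN1: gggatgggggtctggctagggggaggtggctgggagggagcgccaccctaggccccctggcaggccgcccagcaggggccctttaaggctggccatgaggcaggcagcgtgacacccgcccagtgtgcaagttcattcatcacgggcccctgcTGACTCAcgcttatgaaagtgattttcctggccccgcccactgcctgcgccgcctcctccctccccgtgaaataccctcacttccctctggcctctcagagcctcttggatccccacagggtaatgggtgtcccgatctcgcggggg

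The 9 genes split along the array sets. Glutathione genes stood higher in all 3 high spike-in arrays than in all 8 others. OSGIN1 and SQSTM1 stood lower there. In all, 3 of 9 genes lay wholly above and 2 of 9 wholly below, where 13.5% and 16.3% of all genes did. The duplicates share a treatment and lie in different sets. For genes parted in this way the sign of first minus second array is fixed, so only its size is a description. The first control array minus the second was 0.84 for SLC7A11, 0.36 for GCLC, 0.23 for GCLM, -0.35 for OSGIN1 and -0.21 for SQSTM1. The first E2-BSA array minus the second was 0.52, 0.60, 0.72, -0.28 and -0.31 in the same order.

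SLC7A11, the cystine importer that supplies glutathione synthesis, stood at 0.52 with estradiol, 0.40 in the first E2-BSA array and 0.65 in the first control array. In the other set it stood at -0.26 with E2-BSA and ICI, -0.29 with ICI, -0.01 with E2-BSA and G15, -0.13 with G15, -0.12 in the second E2-BSA array, -0.29 with BSA, 0.13 with ethanol and -0.18 in the second control array. All 3 arrays of the first set lay above all 8 of the second. The 3 probe sets of the gene had means higher by 0.57, 0.54 and 0.90 in the first set. Probe set 209921_at did overlap, at 0.23 in the first E2-BSA array and 0.34 in the ethanol array.

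GCLC, the catalytic subunit of the enzyme that limits glutathione synthesis, stood at 0.37 with estradiol, 0.28 in the first E2-BSA array and 0.20 in the first control array, and between -0.32 and -0.05 in the other 8 arrays. GCLM, the regulatory subunit of the same enzyme, stood at 0.42 with estradiol, 0.47 in the first E2-BSA array and 0.35 in the first control array. In the other 8 it stood at -0.11 with E2-BSA and ICI, -0.02 with ICI, -0.15 with E2-BSA and G15, -0.04 with G15, -0.25 in the second E2-BSA array, 0.13 with BSA, -0.20 with ethanol and 0.12 in the second control array. Neither subunit had overlapping values between the sets when its probe sets were averaged. The GCLC probe set 1555330_at did overlap, at -0.17 in the first E2-BSA array and 0.10 in the second control array.

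The average of GCLM hides probe sets that disagree. Probe set 203925_at was higher by 1.45 in the mean of the high spike-in arrays and 234986_at by 0.48, while 236140_at differed by -0.49. SQSTM1 was also split: 201471_s_at was higher by 0.66 in that set, 213112_s_at differed by -0.05, and 242568_s_at, 244804_at and 239004_at differed by -0.48, -0.91 and -1.12. The direction of these genes between the sets therefore depends on the probe set read.

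**Figure D1:**
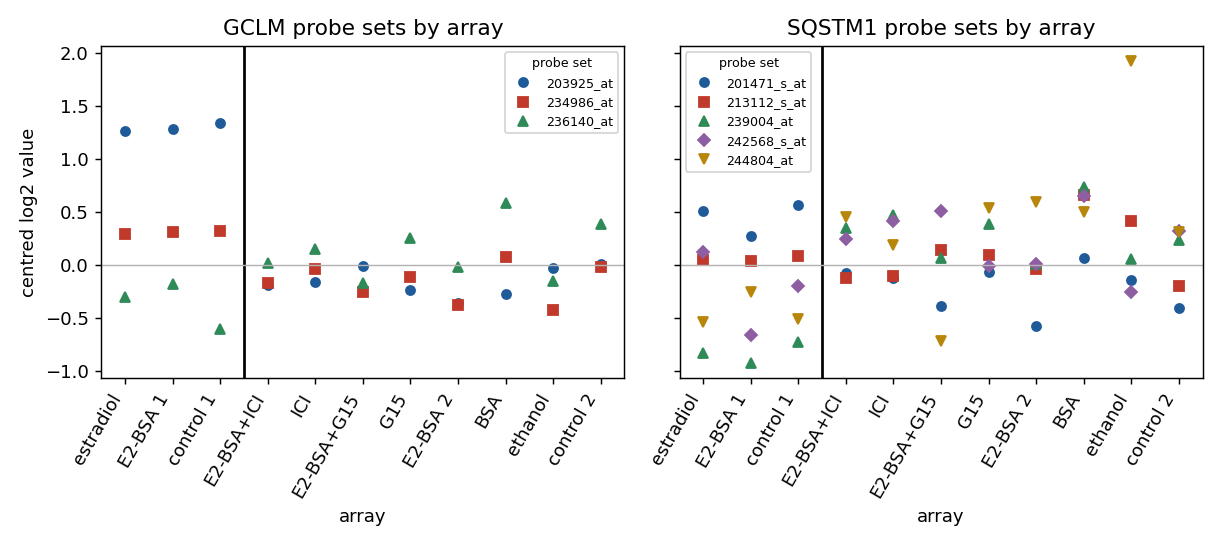
Centred log2 value (vertical axis) of each probe set of GCLM (left) and SQSTM1 (right) in each array (horizontal axis), with the 3 high spike-in arrays left of the line and the other 8 right of it. In GCLM 203925_at lies above 1.2 in the 3 arrays and 236140_at below 0, and in SQSTM1 244804_at reaches 1.93 in the ethanol array.

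OSGIN1, an oxidative stress-induced growth inhibitor, stood at -0.32 with estradiol, -0.14 in the first E2-BSA array and -0.29 in the first control array. In the other set it stood at 0.56 with E2-BSA and ICI, 0.53 with ICI, 0.22 with E2-BSA and G15, 0.29 with G15, 0.14 in the second E2-BSA array, 0.07 with BSA, 0.67 with ethanol and 0.06 in the second control array. The sets did not overlap. The ethanol array and both ICI arrays were its highest. Over the 11 arrays OSGIN1 had the widest range of the 9 genes, 0.99, against a median range of 0.72 for the 9 and 0.64 for all genes.

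TXNRD1, SRXN1, NQO1 and HMOX1 overlapped between the sets. Thioredoxin reductase TXNRD1, which recycles thioredoxin with NADPH, lay between 0.11 and 0.37 in the high spike-in arrays and between -0.12 and 0.24 in the others. SRXN1, a sulfiredoxin that repairs overoxidised peroxiredoxins, lay between -0.02 and 0.27 and between -0.28 and 0.14. The quinone reductase gene NQO1 had the narrowest range of the 9, 0.40.

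**Figure D2:**
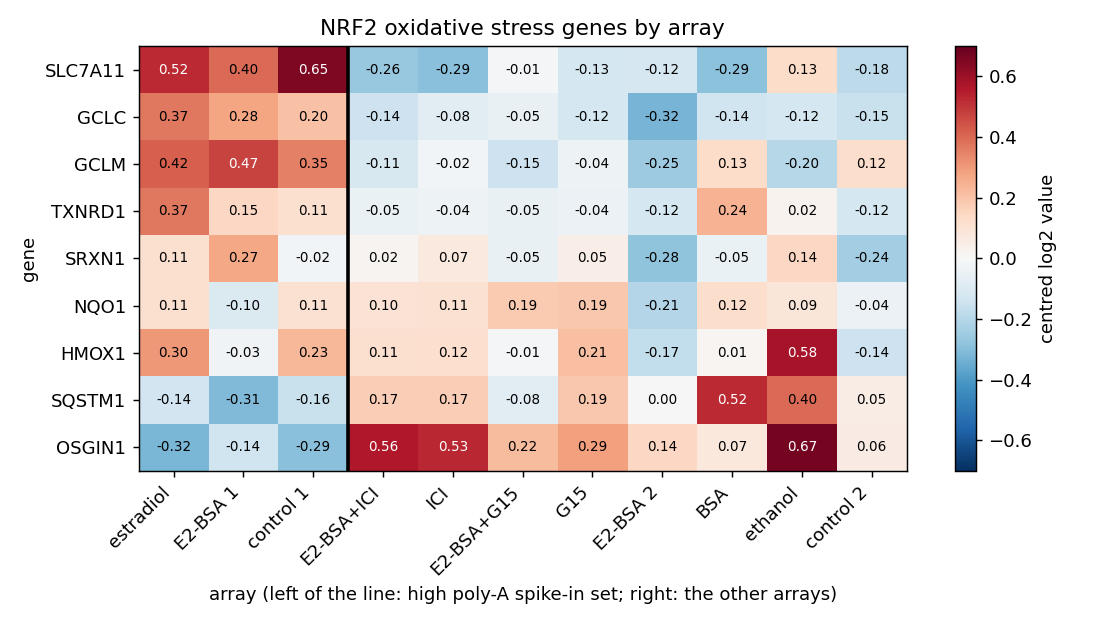
Centred log2 value of each of the 9 genes (rows) in each array (columns), printed in the cells and coloured from blue (low) to red (high), with the 3 high spike-in arrays left of the line. SLC7A11, GCLC and GCLM are higher left of the line and OSGIN1 and SQSTM1 lower, and the ethanol array holds the highest HMOX1 and OSGIN1 values, 0.58 and 0.67.

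Ethanol at 0.1% was set against the control. HMOX1 and OSGIN1 had their highest value of all 11 arrays with ethanol, which 4.27% of all genes did. A positive difference from control was found in 8 of 9 genes and in 10821 of all 19775. No member passed, and the ethanol group had 1 array, whose own spread was not measured.

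HMOX1, haem oxygenase 1, which breaks haem down to biliverdin, iron and carbon monoxide, stood at 0.58 with ethanol. It stood at 0.11 with E2-BSA and ICI, 0.12 with ICI, -0.01 with E2-BSA and G15, 0.21 with G15, -0.17 in the second E2-BSA array, 0.01 with BSA and -0.14 in the second control array. In the high spike-in set it stood at 0.30 with estradiol, -0.03 in the first E2-BSA array and 0.23 in the first control array. The ethanol value lay apart from the other 10, which reached at most 0.30. The log2 difference from control was 0.67 ± 0.15 (SE) for HMOX1, with a 95% interval of 0.32 to 1.03 before any adjustment and an adjusted p of 0.366 in limma. OSGIN1 differed by 0.60 ± 0.15 (adjusted p = 0.475) and SRXN1 by 0.42 ± 0.16 (adjusted p = 0.767).

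The glutathione genes had smaller or opposite differences. With ethanol SLC7A11 differed by 0.27 ± 0.16 (SE), GCLC by 0.10 ± 0.14 and GCLM by -0.20 ± 0.17 from control. SQSTM1, the autophagy receptor p62 that also binds KEAP1, differed by 0.31 ± 0.15, but by -0.10 when the median of its probe sets was taken and by 0.62 without its _s_at and _x_at probe sets. Its direction with ethanol therefore depends on the probe sets. SLC7A11 was at -0.06 and SRXN1 at 0.23 without the set term. The SQSTM1 probe sets differed widely in the ethanol array, from -0.58 for 242568_s_at to 1.61 for 244804_at relative to the second control array. Within the set of 8 arrays, ethanol minus the second control was 0.72 for HMOX1, 0.61 for OSGIN1, 0.38 for SRXN1 and -0.33 for GCLM, and the median of the 9 was 0.31 against 0.05 for all genes.

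Limma called 17 of 19775 genes for ethanol (0.086%), all higher, and 0 of the 9. At an unadjusted p under 0.05 there were 3 of the 9 and 1256 of all genes (6.35%). Of 14 ATF4 amino acid response genes, a stress list that shares SLC7A11 as a known target, 2 passed and rose: ATF3 by 1.38 ± 0.17 (SE, adjusted p = 0.0442) and DDIT4, which restrains mTORC1 under stress, by 2.34 ± 0.24 (adjusted p = 0.0243). The median of that list was 0.48, against 0.02 for all genes. Both calls ended without the second control array (adjusted p = 0.9999 for ATF3 and 0.246 for DDIT4), where the differences were 1.37 and 1.93. They also ended without the second E2-BSA array (adjusted p = 0.402 and 0.0624), at 1.39 and 2.58, and without either array holding ICI. Without the set term the differences were smaller, 1.01 for ATF3 and 1.40 for DDIT4 (adjusted p = 0.977 each). Over all alternatives the adjusted p ranged from 0.0157 to 0.9999 for ATF3 and from 0.0175 to 0.977 for DDIT4. ATF3 was at 0.42 ± 0.17 when its _s_at and _x_at probe sets were left out (adjusted p = 0.750).

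Of the other fixed lists 0 genes passed for ethanol. Among 9 measured regulators of the pathway, MAFF, a small MAF partner, had the highest difference, 0.85 ± 0.16 (SE, adjusted p = 0.240), and the related factor NFE2L3 the lowest, -0.34 ± 0.14 (adjusted p = 0.781). The 25 other NRF2 targets had a median of 0.07, from -0.49 ± 0.47 for the aldo-keto reductase AKR1C3 to 0.47 ± 0.16 for the epoxide hydrolase EPHX1 (adjusted p = 0.953 and 0.718). The 16 antioxidant enzymes outside these lists had a median of 0.10. Of 8 markers of leukocytes, endothelium, fibroblasts and liver, the median was 0.09, from -0.24 ± 0.24 for CD3E to 0.38 ± 0.17 for CDH5, and 0 passed; their part in the result was not tested.

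The carrier BSA was set against the control because E2-BSA brings the same protein. SQSTM1 and TXNRD1 had the highest differences of the 9, and none passed. SQSTM1 stood at 0.52 with BSA, its highest value, against 0.17 with E2-BSA and ICI, 0.17 with ICI, -0.08 with E2-BSA and G15, 0.19 with G15, 0.00047 in the second E2-BSA array, 0.40 with ethanol and 0.05 in the second control array. In the high spike-in set it stood at -0.14 with estradiol, -0.31 in the first E2-BSA array and -0.16 in the first control array. It differed from control by 0.44 ± 0.15 (SE, adjusted p = 0.262) and TXNRD1 by 0.37 ± 0.13 (adjusted p = 0.265). In the fit on single probe sets, 4 of the 5 SQSTM1 probe sets had positive differences from control, from 0.43 ± 0.30 for 242568_s_at to 0.79 ± 0.17 for 213112_s_at (SE), and 244804_at was at -0.02 ± 0.48. None of the 5 passed.

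Much of this direction was shared by the whole array. The 9 genes had a median difference of 0.13 with 8 of 9 positive. All genes had a median of 0.17 with 15824 of 19775 positive. With each array centred on its own median, the 9 had a median of -0.02, with 4 of 9 positive. SLC7A11 differed from control by -0.14 ± 0.16 (SE) as deposited and by -0.29 with arrays centred, and OSGIN1 by 0.0003 ± 0.15 and -0.15. SQSTM1 was at 0.29 and TXNRD1 at 0.22 with arrays centred, and SQSTM1 at 0.25 ± 0.27 without its _s_at and _x_at probe sets. Limma called 70 genes (0.354%), 0 of them among the 9. At an unadjusted p under 0.05 there were 2 of the 9 and 3179 of all genes (16.1%). Of the pathway regulators, MAFF was highest at 0.94 ± 0.16 (adjusted p = 0.0835) and NFE2L2 itself lowest at 0.17 ± 0.24 (adjusted p = 0.721). Of the other NRF2 targets, the biliverdin reductase BLVRB was lowest at -0.79 ± 0.16 (adjusted p = 0.162) and the transporter gene ABCC2 highest at 0.44 ± 0.21 (adjusted p = 0.332). The medians were 0.18 for those targets, 0.44 for the regulators, 0.27 for the ATF4 genes, 0.31 for the other antioxidant enzymes and 0.08 for the other cell type markers.

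E2-BSA minus the carrier BSA uses that same BSA array and so is not separate evidence. SQSTM1 differed by -0.55 ± 0.15 (SE, adjusted p = 0.203), TXNRD1 by -0.36 ± 0.13 (adjusted p = 0.239) and NQO1 by -0.29 ± 0.14 (adjusted p = 0.313). The median of the 9 was -0.24 and that of all genes -0.19. Limma called 61 genes (0.308%) and 0 of the 9. At an unadjusted p under 0.05 there were 2 of the 9 and 3527 of all genes (17.8%), a like share. With arrays centred on their medians SQSTM1 was at -0.39, TXNRD1 at -0.20 and NQO1 at -0.13.

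The 4 matched pairs of arrays differ by E2-BSA, which gave this comparison the smallest errors. None of the 9 genes passed. HMOX1, NQO1 and SQSTM1 were lower with E2-BSA in all 4 pairs, as were 8.26% of all genes, and 0 of 9 were higher in all 4, as were 5.14% of all genes. For HMOX1 the E2-BSA array differed from its match by -0.26 in the pair of first arrays, -0.03 in that of second arrays, -0.0052 with ICI and -0.22 with G15. NQO1 differed by -0.21, -0.16, -0.0050 and -0.0047 in the same pairs, and SQSTM1 by -0.15, -0.05, -0.0006 and -0.27. The difference was near 0 in the ICI pair for all 3 genes. The median of all genes was -0.0025, 0.03, -0.0115 and -0.08 in the same pairs. All 3 genes lay above that median in the ICI pair, and NQO1 also in the G15 pair. Relative to the whole array, none of the 3 was therefore lower in all 4 pairs.

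Over the pairs, HMOX1 differed by -0.13 ± 0.09 (SE, adjusted p = 0.903), with a 95% interval of -0.33 to 0.07. SQSTM1 differed by -0.12 ± 0.08 (adjusted p = 0.903), GCLM by -0.12 ± 0.10 (adjusted p = 0.904) and NQO1 by -0.10 ± 0.08 (adjusted p = 0.904). The other 5 genes lay between -0.02 and 0.05. Before adjustment the intervals of the 9 reached from -0.34 at the lowest to 0.25 at the highest. The fit shares 1 E2-BSA difference over pairs with and without antagonist, so these intervals do not bound a change without antagonist. In limma 0 of 19775 genes passed (0%); 927 had an unadjusted p under 0.05, and 0 of these were among the 9.

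**Figure D3:**
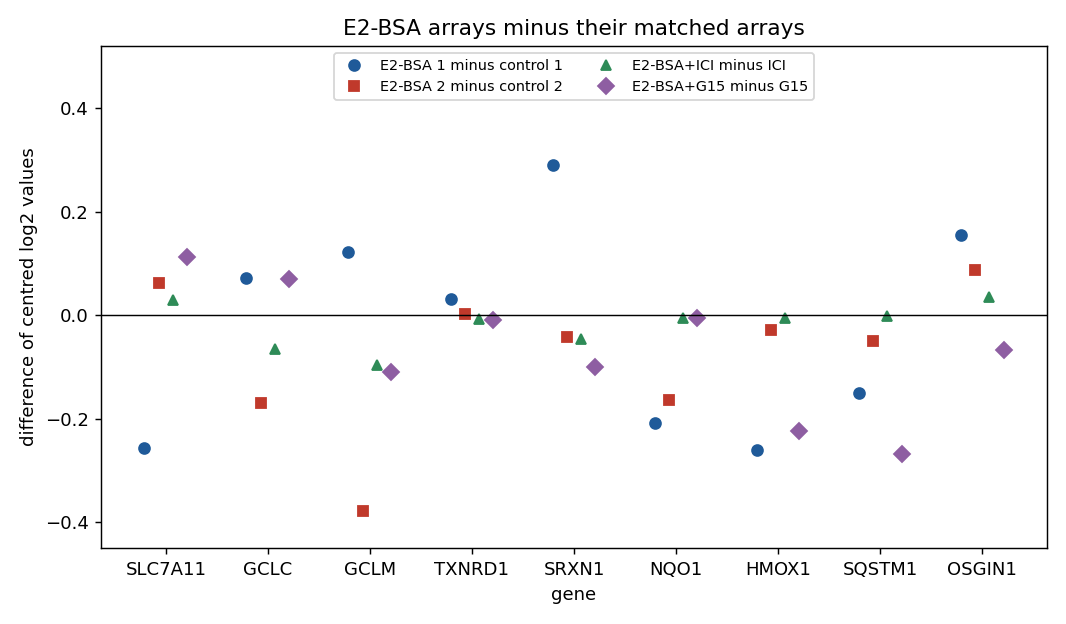
Difference of centred log2 values (vertical axis) between each E2-BSA array and its matched array without E2-BSA, for each of the 9 genes (horizontal axis); each marker shape is 1 of the 4 pairs. HMOX1, NQO1 and SQSTM1 lie at or below 0 in all 4 pairs, with the ICI pair within 0.01 of 0, and the other 6 genes have pairs on both sides of 0.

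GCLM and SRXN1 varied most between the pairs. GCLM differed by 0.12 in the pair of first arrays and -0.38 in that of second arrays, and SRXN1 by 0.29 and -0.04. The pathway's regulators had a median of -0.09, with NFE2L3 lowest at -0.21 ± 0.08 (SE) and MAFG highest at 0.06 ± 0.09. The other NRF2 targets had a median of -0.04, with AKR1C3 lowest at -0.44 ± 0.26 and the transketolase gene TKT highest at 0.22 ± 0.11, while all genes had a median of -0.02. None passed (adjusted p = 0.903 for NFE2L3, AKR1C3 and TKT, and 0.933 for MAFG).

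Free estradiol was measured once, in the high spike-in set, and its array was coded without ethanol. If it held the ethanol vehicle, its difference from untreated control includes that of the vehicle, which was not tested. Estradiol minus the first control array was 0.07 for HMOX1 and -0.03 for OSGIN1. Ethanol minus the second control array was 0.72 and 0.61. With estradiol, beside the first control array, TXNRD1 was higher by 0.25, GCLC by 0.16 and SRXN1 by 0.13, and SLC7A11 differed by -0.13. The fit gave TXNRD1 a difference of 0.24 ± 0.13 (SE, adjusted p = 0.811) and HMOX1 0.13 ± 0.15 (adjusted p = 0.999), and the other 7 lay between -0.08 and 0.12. In limma 0 genes passed (0%); 1397 had an unadjusted p under 0.05, and 0 of these were among the 9. The medians were 0.04 for the 9 and -0.02 for all genes. The TXNRD1 and GCLC differences depend on the probe set. On single probe sets TXNRD1 differed by 0.44 ± 0.16 (SE) for 1561080_at and 0.04 ± 0.15 for 201266_at. GCLC differed by 0.49 ± 0.19 for 1555330_at, but by -0.08 ± 0.16 for 202922_at and -0.06 ± 0.21 for 202923_s_at.

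Estradiol and E2-BSA share the steroid, differ in the protein carrier and may differ in the vehicle. Both were given at 1 µM for 3 h, and whether the E2-BSA figure counts the conjugate or the steroid is not given. This is 1 pair of compounds. HMOX1 differed between estradiol and E2-BSA by 0.26 ± 0.15 (SE, 95% interval -0.09 to 0.62, adjusted p = 0.765), TXNRD1 by 0.24 ± 0.13 (-0.06 to 0.53, adjusted p = 0.739) and SLC7A11 by 0.0023 ± 0.16 (-0.36 to 0.37, adjusted p = 0.999). No gene passed between them (0% called in limma, 1539 at an unadjusted p under 0.05); the intervals of all 9 genes include 0, so neither a difference nor a likeness was shown.

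Estradiol against its vehicle ethanol crosses the array sets and holds only through the set term. OSGIN1 differed by -0.68 ± 0.21 (SE, adjusted p = 0.507), HMOX1 by -0.54 ± 0.21 (adjusted p = 0.573) and SRXN1 by -0.42 ± 0.22 (adjusted p = 0.668), and the ethanol array is shared with the comparison above. Without the set term HMOX1 was at -0.27 and SRXN1 at -0.03. Limma called 2 genes (0.0101%), 0 of them among the 9.

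The antagonists ICI and G15 were each present in 2 arrays, alone and with E2-BSA. In 6 of 9 genes all 4 antagonist arrays lay above the second E2-BSA and second control arrays, as in 32.6% of all genes. OSGIN1 had the highest difference with ICI, 0.44 ± 0.12 (SE, adjusted p = 0.279). Relative to the second control array it was higher by 0.50 with E2-BSA and ICI, by 0.47 with ICI, by 0.16 with E2-BSA and G15 and by 0.23 with G15. SRXN1 differed by 0.31 ± 0.12 with ICI (adjusted p = 0.296) and HMOX1 by 0.27 ± 0.12 (adjusted p = 0.313). With arrays centred OSGIN1 was at 0.32, SRXN1 at 0.18 and HMOX1 at 0.15. After quantile normalization OSGIN1 was at 0.36.

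With G15 the highest difference was that of NQO1, 0.31 ± 0.11 (SE, adjusted p = 0.482), which stood at 0.19 in both G15 arrays, against -0.21 in the second E2-BSA array and -0.04 in the second control array. SRXN1 and HMOX1 both differed by 0.26 ± 0.12 (adjusted p = 0.490 and 0.488). These differences include a shift of the whole array, and NQO1 with G15 was at 0.23 with arrays centred. The medians were 0.14 for the 9 and 0.14 for all genes with ICI, and 0.15 and 0.10 with G15. In limma 0 genes passed for either antagonist (0%). At an unadjusted p under 0.05 there were 3219 genes for ICI (16.3%), 2 of them among the 9, and 2042 for G15 (10.3%), 1 of them among the 9.

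The regulators had medians of 0.23 with ICI and 0.14 with G15. NFE2L3 was highest with ICI at 0.32 ± 0.11 (SE, adjusted p = 0.280), and NFE2L2 was lowest with G15 at -0.11 ± 0.19 (adjusted p = 0.831). Of the other NRF2 targets BLVRB was highest under both, at 0.49 ± 0.13 with ICI (adjusted p = 0.279) and 0.45 ± 0.13 with G15 (adjusted p = 0.482). The superoxide dismutase gene SOD1 had a wide error with ICI, -1.21 ± 0.47 (adjusted p = 0.290), and stood at -1.42 with E2-BSA and ICI, -1.50 with ICI, -0.14 with E2-BSA and G15 and -1.88 with G15, against -0.22 in the second E2-BSA array and -0.27 in the second control array.

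**Figure D4:**
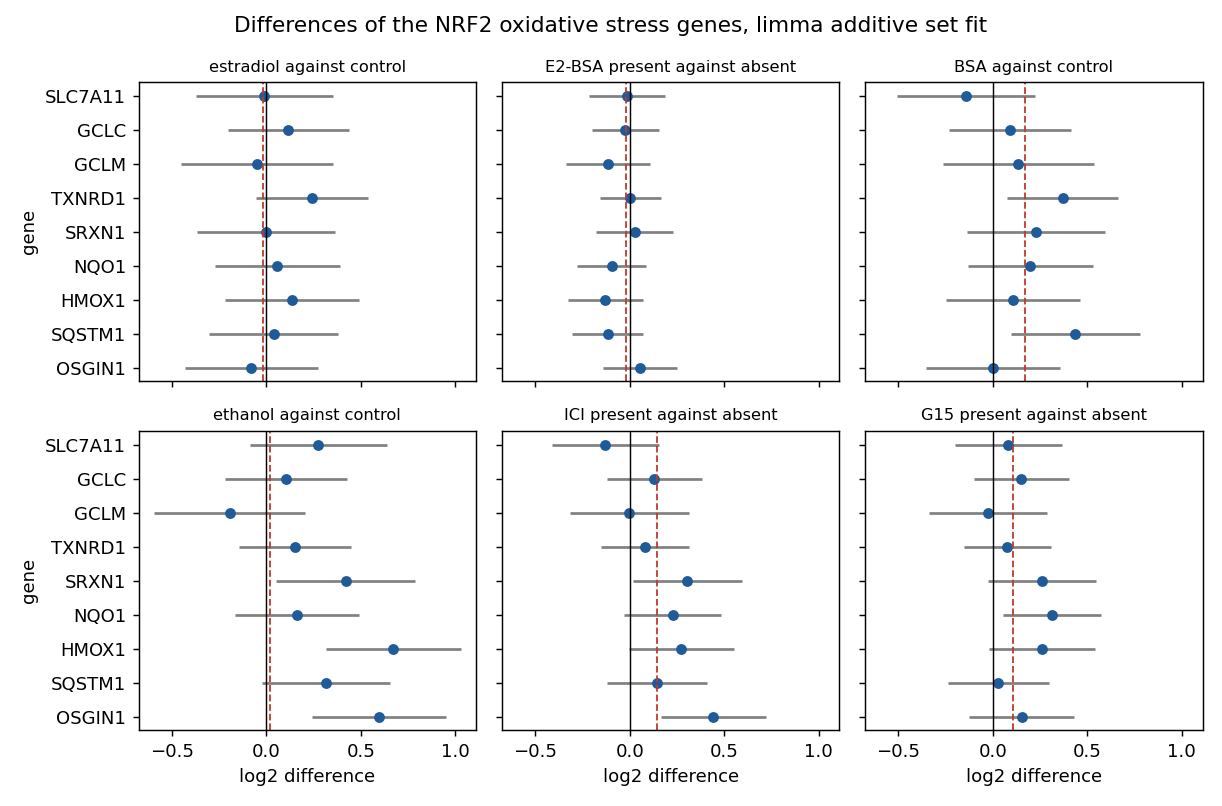
Log2 difference (horizontal axis) of each of the 9 genes (vertical axis) in 6 comparisons of the additive set fit, with points for estimates, grey bars for 95% intervals before adjustment, and a red dashed line for the median of all genes. HMOX1 and OSGIN1 lie furthest from that line with ethanol, at 0.67 and 0.60, and with E2-BSA every interval includes 0.

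The other NRF2 targets also parted along the array sets. Of 25 measured, 8 lay wholly above and 5 wholly below in the high spike-in arrays, where 13.5% of all genes lay above and 16.3% below. AKR1C3 was highest, at 2.73 with estradiol, 1.95 in the first E2-BSA array and 3.40 in the first control array, while the other 8 arrays lay between -0.47 and 0.07. AKR1C2 and AKR1C1, close copies whose probes may share transcripts, were higher by 1.39 and 0.91 in the mean of that set. The thioredoxin gene TXN was lowest, at a difference of -1.33. Of 14 ATF4 genes, 6 lay above and 0 below, with a median difference of 0.76, against -0.02 for all genes. Of the 16 other antioxidant enzymes 7 lay above and 8 below, with a median of -0.27, and of the 9 regulators 0 lay above and 1 below. Of the 8 other cell type markers 1 lay above and 1 below.

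After each set's mean was subtracted, 28 of the 36 pairs among the 9 genes had over the 11 arrays a positive Pearson correlation, with a median of 0.32. Over all pairs of the 19775 genes 66.3% were positive, with a median of 0.17. The highest was 0.77 for TXNRD1 with SQSTM1 and for SRXN1 with OSGIN1, and the lowest -0.63 for GCLM with SLC7A11. The genes most like the mean of the 9 were TWNK (0.94), UGDH (0.93), CUL7 (0.92), PYY2 (0.91) and RHOB (0.91). The genes most like HMOX1 were NDRG1 (0.93), SLC27A3, ZNF622 and METRNL (0.92 each) and AQP3 (0.92). These are likenesses among 19775 genes on 11 shared arrays, given as a description.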

How the data were processed

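The 11 arrays hold total RNA from MDA-MB-231 cells in 9 groups, per the labels. The authors deposited log2 values (base taken as 2) centred per probe set. How they summarised, normalised and centred them is not given in the sources used here. The values run from -4.20 to 6.69, array medians from -0.05 to 0.09, and the pair of values nearest 0 is equal and opposite, within 1e-05, for 51.0% of probe sets. No background level or detection call could be used.

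Probe sets with 1 symbol (41091 of 54675; 1801 had several and 11721 none, beside 62 controls) were joined by the platform annotation and averaged per gene. List genes without a single-symbol probe set are not reported. The tests were made in R 4.3.3 by limma 3.58.1, with a variance trend and Benjamini-Hochberg adjustment; the additive set fit left 3 residual degrees of freedom. For groups of 1 array the spread is taken from the residuals of the whole fit. The fit was tested on simulated data. The set term parts the arrays at the largest gap (1.30, next 0.39) in the mean of 24 poly-A probe sets. In the control and E2-BSA duplicates it coincides with the replicate number.

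Members, lists, tests and the naming rule (all members, list genes that passed, otherwise the highest and lowest of a list, and the 5 genes most like the members or HMOX1) were chosen with earlier results of these data known. SOD1, AKR1C1 and AKR1C2 were also named by array after their values were seen. The single probe set fit was added after seeing the data. Figures used matplotlib 3.10.9.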

Additional observations from a re-analysis of the deposited data

Results flagged for a closer look

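TXNRD1 was singled out because the sign of its E2-BSA difference was opposite with and without an antagonist. The E2-BSA array differed from its match by 0.0317 in the pair of first arrays and by 0.0030 in that of second arrays, by -0.0081 with ICI and by -0.0089 with G15. All 4 values are small beside the residual spread of a member (median SD 0.08), the difference between the backgrounds was not tested, and 12.9% of all genes show the same arrangement of signs.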

How the results depend on the processing

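None of the 9 genes passed in any of the 9 comparisons under any alternative run that gave it a value. NQO1 has only _s_at probe sets, so it had no value in the run without _s_at and _x_at probe sets. The lowest adjusted p of a member was 0.119 over 1269 alternative values (HMOX1 with ethanol after quantile normalization), against 0.203 in the additive set fit, and 207 of these values moved by more than the gene's residual SD. The cause of the changes below was not tested.

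The paired structure mattered for counts over all genes. The control and E2-BSA duplicates deviated together by replicate number (r = 0.81 over genes between first minus second arrays), which coincides with the array set. With no replicate block, that is without the set term, BSA against control had 5 calls, and ethanol against control, E2-BSA against BSA and estradiol against ethanol had 0 each (560, 1855 and 1674 genes at an unadjusted p under 0.05, in limma). The replicate block on the 4 control and E2-BSA arrays alone gave 0 calls for E2-BSA, as in the additive set fit. Quantile normalization gave 41 calls for ethanol, 2 for ICI and 0 for estradiol against ethanol. Without _s_at and _x_at probe sets ethanol had 10 calls and estradiol against ethanol 0, as that comparison also had with a mean per group and with arrays centred on their medians (1323 to 1776 at an unadjusted p under 0.05 in these 4).

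With 1 array left out at a time, calls ranged from 4 to 76 for BSA against control (lowest without the second control array, and 5 without the second E2-BSA array), from 0 to 75 for E2-BSA against BSA and from 0 to 19 for ethanol (both 0 without the second control or second E2-BSA array, with 598 to 2043 genes at an unadjusted p under 0.05). They ranged from 0 to 22 for ICI (22 without the G15 array and 6 without the E2-BSA and G15 array), from 0 to 179 for G15 (179 without the G15 array) and from 0 to 3 for estradiol against ethanol (3 without the E2-BSA and G15 array, 1 without the first control array and 0 without each of the others left out). BSA had 31 or 30 calls and ethanol 9 without either array that held ICI, E2-BSA against BSA had 26 or 25, and ethanol had 11 without the first control array. In the fit on single probe sets, chosen after seeing the data, 0 of the 22 passed in any comparison. Signal over background is not in these values, so what it limits could not be measured.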
